A study of Mus musculus with 2 samples.

Results

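Genes of glycolysis and of the response to low oxygen were compared between gastric organoids of aged and young mice. The members were 41 genes fixed by name, comprising transporters of glucose and lactate, enzymes of glycolysis, regulators of its flux, oxygen sensors and other targets of hypoxia-inducible factors. A member was measured where a probe set was annotated to its symbol and to no other gene, which held for 39 of the 41, out of 19505 genes in all. The probe annotation used here listed no probe set under *Gpi1* or *Eno1*, so these genes were not analysed here, and *Ero1l* was measured under its current name, *Ero1a*. Organoids came from C57BL/6 mice of more than 18 months (aged) and of 2 to 4 months (young), and total RNA of each group was hybridized to 1 Clariom S array. Organoids of both groups grew in Matrigel in the same medium, which contained EGF, Noggin, Wnt3a, R-Spondin1, FGF10 and the GSK3 inhibitor Chir99021. The medium also held the TGF-β receptor inhibitor SB431542, the ROCK inhibitor Y-27632 and valproic acid, an inhibitor of histone deacetylases. Whether an array held RNA of 1 mouse or of several was not given in the sources used here. Without replicates no difference was tested, and age cannot be told apart from any other difference between these 2 samples.

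Glycolysis splits glucose into pyruvate in the cytosol and yields ATP without oxygen. When oxygen is short, or when cells divide fast, pyruvate is reduced to lactate, which regenerates the NAD+ that glycolysis needs, and the lactate leaves the cell through monocarboxylate transporters. The response to low oxygen is run by the hypoxia-inducible factors (HIF). Prolyl hydroxylases of the Egln family mark their α subunits in the presence of oxygen, the Vhl protein then directs the marked subunits to degradation, and in low oxygen the stabilized factors switch on genes for glucose uptake, most glycolytic enzymes, lactate export, pH control, mitophagy and collagen hydroxylation. Since the control of the HIF α subunits is mainly at the protein level, the RNA of *Hif1a* and *Epas1* does not show HIF activity. Neither HIF protein nor HIF activity was measured here.

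Signals are on the log2 scale of the authors' RMA normalization. A background reference was set at the 95th percentile of 1400 receptor genes for smell and pheromones, a class with no known role in the stomach, and was 5.54 on the aged array and 5.36 on the young array. The differences of these receptor genes had an SD of 0.50, which describes the precision of dim genes, and the precision of bright genes could not be measured. All 8 epithelial and all 4 stomach markers examined were above the reference on both arrays. Their levels also differed between the arrays, with *Epcam*, *Ehf*, *Cldn7* and *Sox2* 3.64-, 2.57-, 2.25- and 2.32-fold higher and *Ctse* 2.10-fold lower in the aged array, so that 37.5% of the epithelial markers passed 2-fold on the higher side, and the part of this in the members' differences was not tested. In contrast, none of 5 leukocyte and none of 6 endothelial markers was above it on either array. Of 9 fibroblast and muscle markers, *Col1a1* lay close above it on both arrays and *Lum* on the aged array only. Over the 11573 genes above background on at least 1 array the median difference was 0.0020. Genes on chromosomes 6 and 12 stood apart, with median differences of 0.68 over 553 genes and of 0.60 over 410 genes, while the medians of chromosomes 1 to 19 and X other than these ranged between −0.10 and 0.03. Members on chromosomes 6 and 12 are therefore named as such below.

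Most members were brighter on the aged array than on the young array. The 3 prolyl hydroxylase and HIF genes *Egln3*, *Egln1* and *Hif1a*, the mitophagy receptor gene *Bnip3*, the stress-induced gene *Ndrg1* and the oxidase gene *Ero1a* were more than 4-fold higher, and several glycolytic enzymes were 2-fold to 4-fold higher. On the other side, the lactate exporter gene *Slc16a3*, the lactate dehydrogenase subunit gene *Ldhb* and the carbonic anhydrase gene *Car12* were plainly above background on the young array and under the reference on the aged array. Of the 38 members above the reference on at least 1 array, 14 (36.8%) reached a 2-fold higher signal on the aged array, as did 11.3% of all genes above background. A 2-fold lower signal was reached by 6 members (15.8%) and by 11.8% of all genes. The remaining 18 stayed within 2-fold. *Slc16a3*, *Ldhb*, *Car12* and *Epas1* passed the background filter through 1 array only. The median difference of the 38 genes was 0.74, as it was over all 39 measured.

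**Figure D1:**
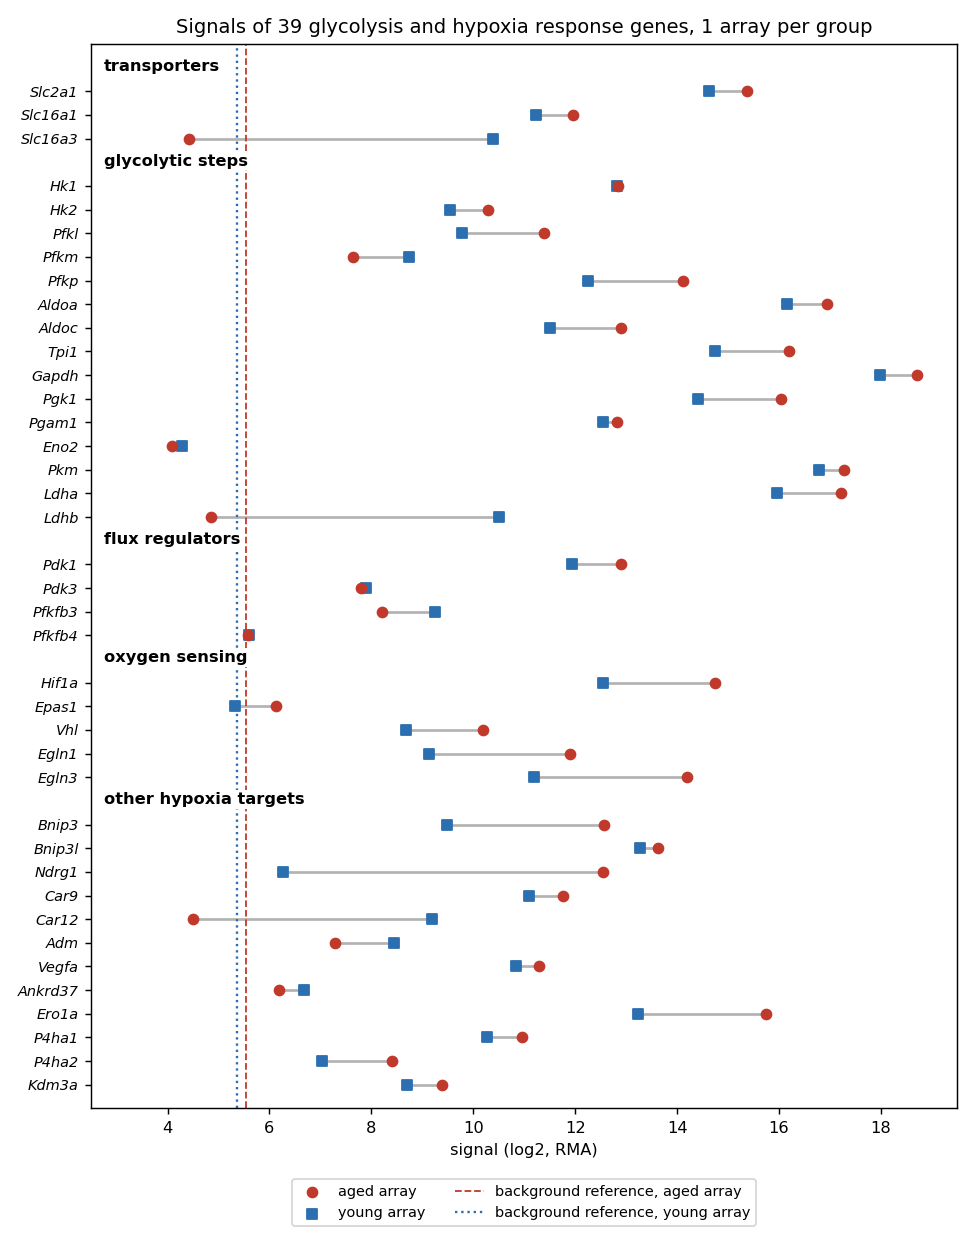
Log2 signal (x axis) of the 39 measured members on the aged array (circles) and the young array (squares), 1 array per group, grouped by role, with the background reference of each array as a vertical line. *Slc16a3*, *Ldhb* and *Car12* lie left of the reference on the aged array only, and *Eno2* lies left of it on both arrays.

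Glucose enters the cell through Slc2a1 (the transporter GLUT1), and lactate crosses the membrane through Slc16a1 (MCT1), which runs in either direction, and Slc16a3 (MCT4), which serves mainly export and is a known HIF target. *Slc2a1* was at 15.37 on the aged array and at 14.63 on the young array, a difference of 0.74. *Slc16a1* was at 11.96 on the aged array and at 11.23 on the young array, a difference of 0.73. *Slc16a3* ran the opposite way, with 4.42 on the aged array and 10.39 on the young array. Its aged signal was 1.12 below the reference, which puts *Slc16a3* at least 28.9-fold lower. The remaining monocarboxylate transporter examined, *Slc16a7* (MCT2), was at 12.66 on the aged array and at 11.71 on the young array, a difference of 0.95. Thus, of these 3 transporters of lactate and pyruvate, *Slc16a3* was the 1 with a lower signal in the aged array.

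The enzymes of the glycolytic chain were mostly higher in the aged array, except that the subunit genes of phosphofructokinase and of lactate dehydrogenase ran in both directions. Of 15 enzyme genes measured, 14 were above the reference, and of these 6 (42.9%) reached 2-fold on the higher side, 2 (14.3%) on the lower side and 6 stayed within 2-fold. Over all genes above background the shares were 11.3% and 11.8%, the second near that of the enzymes. The median over these enzymes was 0.77. Hexokinase traps glucose as glucose 6-phosphate. *Hk1*, the housekeeping form, was at 12.84 on the aged array and at 12.82 on the young array, a difference of 0.02. *Hk2*, the inducible form on chromosome 6, was at 10.30 on the aged array and at 9.54 on the young array, a difference of 0.76.

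Phosphofructokinase commits the sugar to glycolysis and is built from liver, muscle and platelet subunits. *Pfkl* (liver) was at 11.38 on the aged array and at 9.77 on the young array, or 3.04-fold higher. *Pfkp* (platelet) was at 14.11 on the aged array and at 12.24 on the young array, or 3.65-fold higher. *Pfkm* (muscle) was at 7.65 on the aged array and at 8.75 on the young array, or 2.14-fold lower. The difference of *Pfkp* thus exceeded that of *Pfkm* by 2.97 on the log2 scale, and that of *Pfkl* exceeded it by 2.70.

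Aldolase cleaves the sugar in the middle of the pathway. *Aldoa* was at 16.93 on the aged array and at 16.15 on the young array, a difference of 0.78. *Aldoc* was at 12.90 on the aged array and at 11.51 on the young array, or 2.62-fold higher. Below aldolase, the triose phosphates are interconverted by Tpi1, oxidized by Gapdh and used by Pgk1 to make ATP. *Tpi1*, on chromosome 6, was at 16.19 on the aged array and at 14.75 on the young array, or 2.71-fold higher. *Gapdh*, also on chromosome 6 and often used as a loading reference, was at 18.72 on the aged array and at 17.97 on the young array, a difference of 0.74. *Pgk1*, on the X chromosome, was at 16.04 on the aged array and at 14.41 on the young array, or 3.08-fold higher.

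The last steps move the phosphate (Pgam1), remove water (enolase) and make pyruvate and a further ATP (Pkm). *Pgam1* was at 12.82 on the aged array and at 12.54 on the young array, and *Pkm* at 17.27 on the aged array and at 16.79 on the young array, which gave differences of 0.28 and 0.48. *Eno2*, the neuronal enolase, was under the reference on both arrays (4.09 on the aged array and 4.27 on the young array), and no fold is given. *Gapdh*, *Pgk1*, *Tpi1*, *Aldoa*, *Ldha*, *Pkm* and *Pgam1* have processed pseudogenes in the mouse genome, and whether their probe sets also read such copies was not tested. Without these 7 genes, 11 members reached 2-fold on the higher side and 6 on the lower side, and the median difference of the members was 0.73.

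Lactate dehydrogenase interconverts pyruvate and lactate as a tetramer of A and B subunits, of which the A subunit favors lactate formation and the B subunit the return to pyruvate. *Ldha* was at 17.22 on the aged array and at 15.96 on the young array, or 2.40-fold higher. *Ldhb* was at 4.86 on the aged array, which is 0.68 below the reference, and at 10.51 on the young array, which is 5.15 above it. This puts *Ldhb* at least 31.4-fold lower. Its chromosome, number 6, had a median difference of 0.68 in the other direction. With *Ldhb* at its bound, the difference of *Ldha* exceeded that of *Ldhb* by 6.24 on the log2 scale. The testis subunit gene *Ldhc* was under the reference on both arrays (3.67 on the aged array and 3.32 on the young array).

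**Figure D2:**
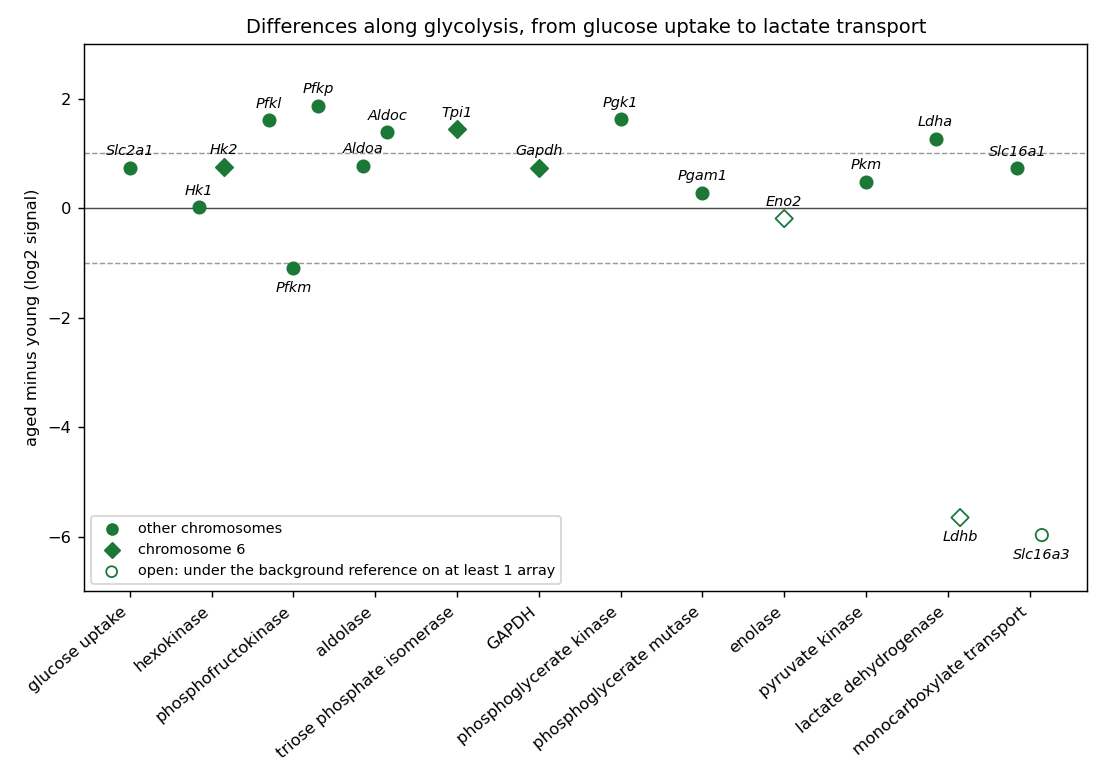
Difference between the arrays (y axis, aged minus young, log2 signal) for transporter and enzyme genes in the order of the pathway (x axis), with diamonds for genes on chromosome 6, open symbols for genes under the background reference on at least 1 array, and dashed lines at 2-fold. Most genes lie between 0.02 and 1.87, *Pfkm* at −1.10 below the lower line, and *Ldhb* and *Slc16a3* at −5.65 and −5.97.

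The regulators of glycolytic flux did not share a direction. Pyruvate dehydrogenase kinases keep pyruvate out of mitochondria by switching off pyruvate dehydrogenase. *Pdk1*, a known HIF target, was at 12.89 on the aged array and at 11.93 on the young array, or 1.95-fold higher. *Pdk3* was at 7.80 on the aged array and at 7.89 on the young array, a difference of −0.09. Among the kinases of the family that were not members, *Pdk4* was at 7.58 on the aged array and under the reference on the young array (5.06), or at least 4.68-fold higher, and it lies on chromosome 6. *Pdk2* was at 9.74 on the aged array and at 10.12 on the young array, a difference of −0.38. The bifunctional enzymes Pfkfb3 and Pfkfb4 set the level of fructose 2,6-bisphosphate, the activator of phosphofructokinase. *Pfkfb3* was at 8.21 on the aged array and at 9.26 on the young array, or 2.07-fold lower, close to the 2-fold limit. *Pfkfb4* lay only 0.04 above the reference on the aged array and 0.24 above it on the young array.

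Of the 5 genes of oxygen sensing, 4 were more than 2-fold higher on the aged array, and 3 of these (*Hif1a*, *Egln3* and *Vhl*) lie on chromosomes 6 and 12. Over all genes above background the share was 11.3%, and on those chromosomes 30.9%. *Epas1*, near background, had a measured difference of 0.81. *Hif1a*, which encodes the inducible α subunit of HIF, was at 14.75 on the aged array and at 12.55 on the young array, or 4.59-fold higher. *Epas1*, which encodes the α subunit HIF-2α, was close to background, with 6.13 on the aged array and 5.32 on the young array, or at least 1.71-fold higher. *Egln1*, which encodes the main oxygen sensor that marks HIF for degradation, was at 11.90 on the aged array and at 9.14 on the young array, or 6.78-fold higher. *Egln3*, a sensor gene that is itself induced by HIF, was at 14.19 on the aged array and at 11.18 on the young array, or 8.05-fold higher. *Vhl*, which encodes the subunit of the ubiquitin ligase that recognizes hydroxylated HIF, was at 10.19 on the aged array and at 8.67 on the young array, or 2.88-fold higher. Genes for a HIF subunit and for proteins that limit HIF were thus higher on the same array.

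*Hif1a* and *Egln3* lie on chromosome 12 and *Vhl* on chromosome 6. After the median difference of the chromosome was taken off, *Hif1a* remained at 1.60, *Egln3* at 2.41 and *Vhl* at 0.84, the last under 2-fold. *Egln1*, on chromosome 8, lay 2.86 above the median of its chromosome. Of 11 further genes of HIF control, 10 were above background, and of these *Egln2*, the third sensor of the family, was 2.52-fold higher (8.72 on the aged array and 7.38 on the young array) and the ubiquitin ligase gene *Siah2*, which acts on Egln proteins, 2.18-fold higher (7.48 on the aged array and 6.36 on the young array). The other 8 stayed within 2-fold. Of these 10 genes, 20% thus passed 2-fold on the higher side and none on the lower side. Over all genes above background the shares were 11.3% and 11.8%. *Arnt*, which encodes the constant β subunit of HIF, was at 9.55 on the aged array and at 9.63 on the young array, and *Hif1an*, which encodes the asparagine hydroxylase that blocks HIF coactivators, at 10.66 on the aged array and at 10.80 on the young array. *Hif3a* was under the reference on both arrays.

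The other hypoxia targets ran in both directions, from *Car12*, under the reference on the aged array, to *Ndrg1* at 6.27. All 12 were above the reference on at least 1 array, and 4 of them (33.3%) reached 2-fold on the higher side, 2 (16.7%) on the lower side and 6 stayed within 2-fold, against 11.3% and 11.8% over all genes above background. Their median was 0.67. *Ndrg1*, a gene induced by hypoxia and during differentiation, was at 12.54 on the aged array and at 6.27 on the young array, where it lay only 0.91 above the reference. It was 77.4-fold higher and at percentile 99.9 of all genes above background. *Bnip3*, which encodes a receptor that sends mitochondria to autophagy, was at 12.57 on the aged array and at 9.48 on the young array, or 8.54-fold higher. Its close relative *Bnip3l* was at 13.62 on the aged array and at 13.27 on the young array, a difference of 0.35.

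*Ero1a*, which encodes an oxidase of the endoplasmic reticulum that supplies disulfide bonds, was at 15.75 on the aged array and at 13.24 on the young array, or 5.71-fold higher. *P4ha2*, a catalytic subunit gene of collagen prolyl hydroxylase, was at 8.39 on the aged array and at 7.04 on the young array, or 2.56-fold higher. *P4ha1*, the gene of the other subunit form, was at 10.95 on the aged array and at 10.27 on the young array, a difference of 0.68. *Kdm3a*, which encodes a histone lysine demethylase, was at 9.38 on the aged array and at 8.69 on the young array, a difference of 0.68. It lies on chromosome 6, and its difference equalled the median of that chromosome.

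The carbonic anhydrases and the secreted factors behaved differently. Car9 and Car12 sit on the cell surface and help to control pH. *Car9*, a well-known HIF target, was at 11.75 on the aged array and at 11.08 on the young array, a difference of 0.67. *Car12* was at 4.50 on the aged array and at 9.20 on the young array, or at least 12.6-fold lower. *Vegfa*, the gene of the vascular growth factor, was at 11.29 on the aged array and at 10.84 on the young array, a difference of 0.45. *Adm*, which encodes the peptide hormone adrenomedullin, was at 7.28 on the aged array and at 8.44 on the young array, or 2.23-fold lower. *Ankrd37*, an ankyrin repeat gene induced by low oxygen, was at 6.18 on the aged array and at 6.67 on the young array, a difference of −0.49.

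**Figure D3:**
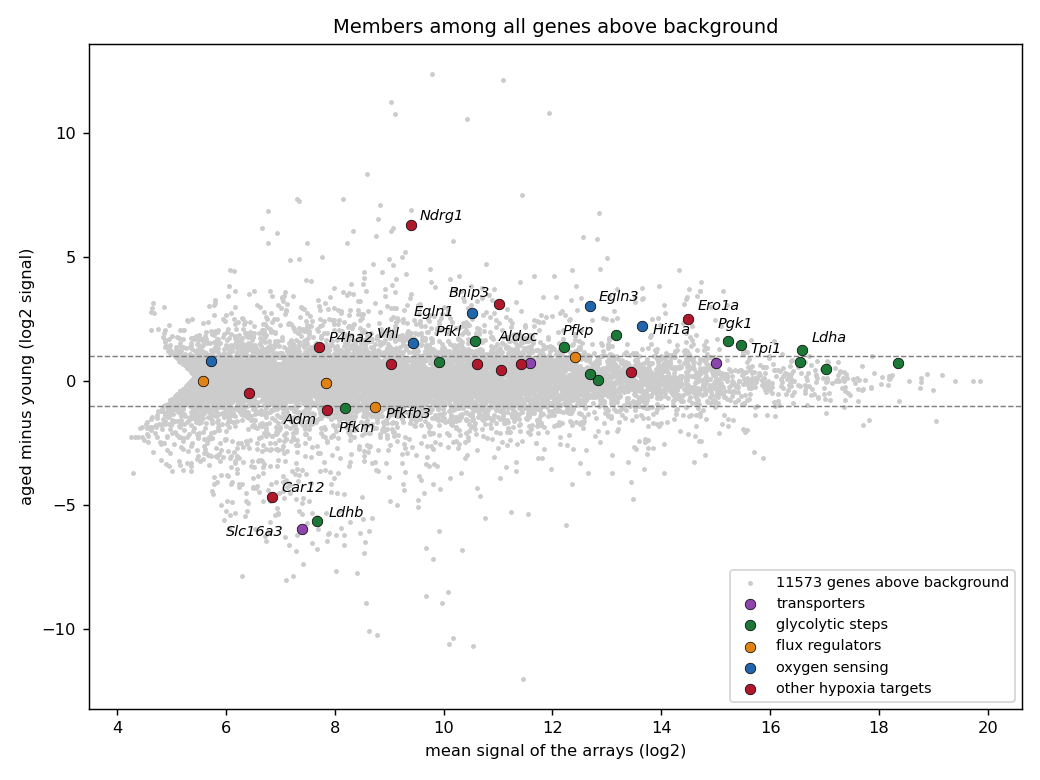
Difference between the arrays (y axis, aged minus young, log2 signal) against their mean signal (x axis, log2) for the 11573 genes above background (grey) and the 38 members among them (colored by role), with dashed lines at 2-fold and names for members at least 2-fold apart. Members at the bright end lie above 0, and *Car12*, *Ldhb* and *Slc16a3* lie far below the lower line.

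Between the glycolytic steps and the other hypoxia targets, the medians were 0.77 and 0.67, a gap of 0.09. The sign of this gap depended on the summary, since the means were 0.39 and 0.81, a gap of −0.42. The quartiles of the glycolytic steps were 0.33 and 1.43, and those of the other hypoxia targets 0.14 and 1.65. The span between the quartiles of the steps thus lay within that of the other targets. No direction is therefore given for the comparison of both groups. At the upper end no glycolytic enzyme was above 1.87, while *Ero1a*, *Bnip3* and *Ndrg1* were at 2.51, 3.09 and 6.27. At the lower end *Ldhb* among the enzymes was at −4.97 or below and *Car12* among the other targets at −3.66 or below, both taken at the background reference.

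Brightness and chromosome were set beside these counts. Of 16 members with a mean signal of at least 12, all 16 were brighter on the aged array, by 0.02 to 3.01, with 8 of them past 2-fold. Among all genes that bright, 9.54% reached 2-fold on the higher side and 8.69% on the lower side. The median difference of these 16 members was 1.11, against −0.0099 over all genes that bright. The mean includes the aged signal, so members can pass this filter through the array where they are high. *Egln3*, *Aldoc* and *Pdk1*, at 11.18, 11.51 and 11.93 on the young array, reached 12 only through the aged array. Of 9 members on chromosomes 6 and 12, 8 were above background, and 4 of these (*Hif1a*, *Egln3*, *Tpi1* and *Vhl*) reached 2-fold on the higher side and 1, *Ldhb*, on the lower side. Of all genes above background on chromosomes 6 and 12, 30.9% reached 2-fold on the higher side and 5.92% on the lower side. On the other chromosomes, 10 of 30 members reached 2-fold on the higher side, against 9.56% of all genes there, and 5 on the lower side, against 12.4%. The median of these 30 members was 0.71. With each difference taken relative to its chromosome, *Tpi1* and *Vhl* were no longer 2-fold higher, *Pdk1* was, *Pfkfb3* was no longer 2-fold lower, and the counts were 13 and 5. *Hk2* and *Gapdh* then remained at 0.07 and 0.06. The part of the chromosomes in these differences was not tested beyond these values.

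Pathways that branch from glycolysis were examined as further lists. For the entry of pyruvate into mitochondria, 1 of 9 genes (11.1%) passed 2-fold on the higher side and none on the lower side. Over all genes above background the shares were 11.3% and 11.8%. The gene that passed was the dehydrogenase subunit gene *Dld* on chromosome 12 (15.06 on the aged array and 13.96 on the young array), 2.14-fold higher. Relative to its chromosome *Dld* was at 0.49, and no gene of this list passed 2-fold. The subunit genes *Pdha1*, *Pdhb* and *Dlat* differed by −0.24, 0.03 and −0.27, and the pyruvate carrier gene *Mpc1* by 0.37. Of the 5 measured genes of the pentose phosphate pathway, which makes NADPH and ribose, *Pgd*, the phosphogluconate dehydrogenase gene, was 2.95-fold lower (12.68 on the aged array and 14.24 on the young array). The other 4 were within 2-fold, with differences between −0.91 and −0.01. The share on the lower side was 20%, against 11.8% over all genes above background, and none passed 2-fold on the higher side. The median of these 5 genes was −0.47, against 0.0020 over all genes above background. *G6pdx* and *Tkt*, also listed for this pathway, were not measured.

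Among genes of gluconeogenesis, the reverse path, *Fbp2*, which encodes the muscle form of fructose bisphosphatase, was at 12.52 on the aged array and at 9.26 on the young array, or 9.56-fold higher. *Pck2*, the gene of the mitochondrial carboxykinase, was at 10.71 on the aged array and at 9.23 on the young array, or 2.80-fold higher. *Fbp1*, *Pck1* and *G6pc*, the liver genes of this path, were under the reference on both arrays. *G6pc3* and *Pcx* were above it on both and differed by −0.04 and −0.57. In this list 4 of 7 genes were above background. Of these, 50% passed 2-fold on the higher side and none on the lower side. The shares of all genes above background were 11.3% and 11.8%. Of glycogen genes, 6 of 9 were above background. Of these, 16.7% passed 2-fold on the higher side and 33.3% on the lower side. Over all genes above background the shares were 11.3% and 11.8%. *Ugp2*, which makes the UDP-glucose for glycogen and for other sugar chains, was at 14.26 on the aged array and at 17.14 on the young array, or 7.36-fold lower. The primer gene *Gyg* was at 4.05 on the aged array and at 6.66 on the young array, or at least 2.17-fold lower, and the phosphorylase gene *Pygb* was at 11.95 on the aged array and at 10.78 on the young array, or 2.25-fold higher. Of 20 other measured isoforms and regulators of glycolysis, 10 were under the reference on both arrays. Among the rest *Pdk4* and the pyruvate kinase gene *Pklr* (10.06 on the aged array and 9.05 on the young array) passed 2-fold on the higher side, and *Pgm1*, which links glycogen to glycolysis, was 2.02-fold lower. *Pgm1* lost this call relative to its chromosome (−0.96) and relative to genes of like mean signal (−0.98), and *Pklr* lost its call relative to its chromosome, at 0.997. Without centring, 20% of the 10 genes above background on this list passed 2-fold on the higher side and 10% on the lower side. The shares over all genes above background were 11.3% and 11.8%.

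A further list of hypoxia targets, none of them a member, held genes at both sides. Of 34 measured, 27 were above background, 4 (14.8%) passed 2-fold on the higher side and 5 (18.5%) on the lower side, near the shares of 11.3% and 11.8% over all genes above background. The median difference was −0.18. *Hmox1*, the heme oxygenase gene that also answers to oxidative stress, was at 11.24 on the aged array and at 14.97 on the young array, or 13.3-fold lower. *Plod2*, a lysyl hydroxylase gene for collagen, was at 8.05 on the aged array and at 10.12 on the young array, or 4.19-fold lower. *Ak4*, a mitochondrial adenylate kinase gene, was at 10.55 on the aged array and at 8.62 on the young array, or 3.79-fold higher. *Fam162a*, a mitochondrial gene induced by hypoxia, was at 12.28 on the aged array and at 10.59 on the young array, or 3.24-fold higher. The other hypoxia targets among the members had a median of 0.67. *Epo*, *Lox* and *Stc1*, known hypoxia targets of other tissues, were under the reference on both arrays.

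**Figure D4:**
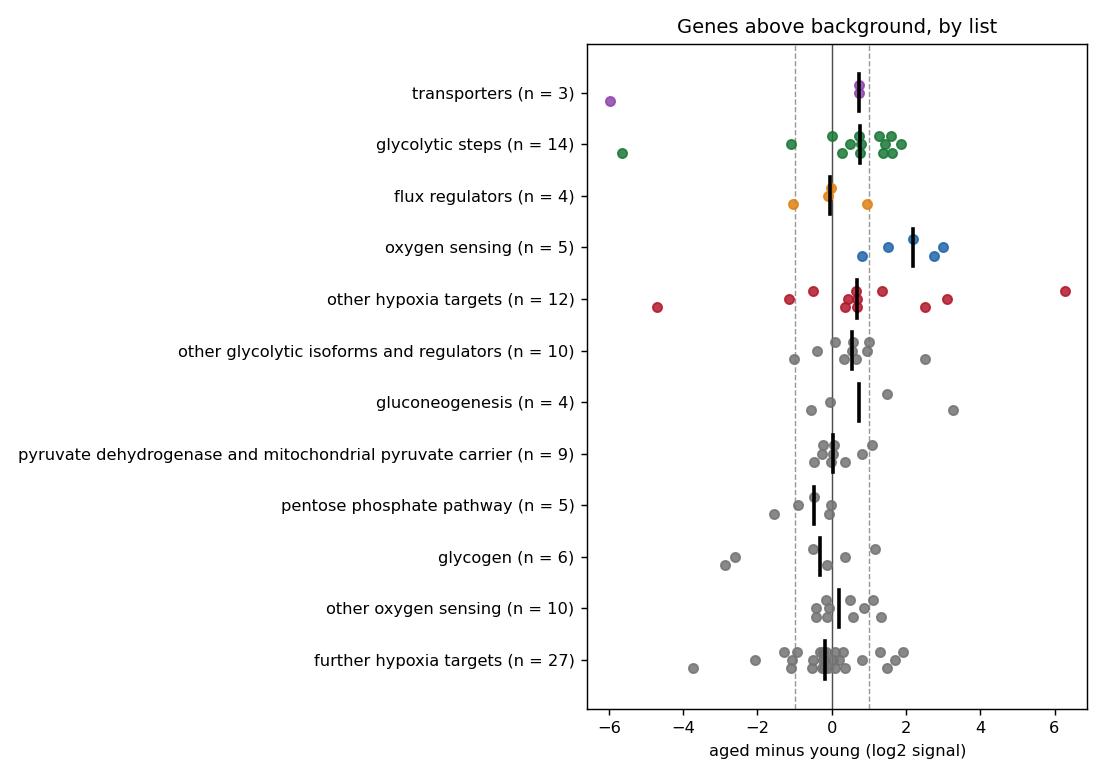
Difference between the arrays (x axis, aged minus young, log2 signal) of each gene above background, by list, with the members' roles in color and the further lists in grey. Black bars are medians and dashed lines mark 2-fold. The oxygen sensing genes have the highest median (2.20) and the 5 measured pentose phosphate genes the lowest (−0.47).

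The promoters of the members were searched for the HIF core motif, ACGTG or GCGTG on either strand, which reads CACGT or CACGC on the opposite strand. CACGTG, which is also the E-box read by Myc and its partners, holds the core on both strands and was counted once. RefSeq promoters (GRCm38.p6) were found for 38 of the 41 listed genes, and not for *Ndrg1*, *Bnip3l* and *Epas1*. In the 250 bases before the start, 41 of 54 member promoters (75.9%) held the core, against 38.6% of all 32851 promoters. By gene, several starts were counted by the start with most matches, which favors genes with many starts. In this count 33 of 38 members held the core (86.8%), against 41.5% of all genes and 60.4% of genes above background. The 38 include *Gpi1* and *Eno1*, which were not measured, and *Eno2*, which was under the reference on both arrays. The sets were not matched for base composition. The core was present in 11 of 13 members past 2-fold on the higher side, in 5 of 6 on the lower side and in all 16 that were above background and within 2-fold. A match is only a run of letters, and binding was not measured.

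The 250 bases before the start follow on the strand of the gene, 5′ to 3′, with the core in capitals. They are shown for the 4 members with the largest positive differences among those with an entry (*Bnip3*, *Egln3*, *Egln1* and *Ero1a*), for the 3 members whose aged signal alone lay under the reference (*Slc16a3*, *Ldhb* and *Car12*) and for *Ldha*, the partner subunit of *Ldhb*. They lie at chr7:138909507-138909756 (−) for *Bnip3*, chr12:54203875-54204124 (−) for *Egln3*, chr8:124949255-124949504 (−) for *Egln1*, chr14:45318573-45318822 (−) for *Ero1a*, chr11:120948817-120949066 (+) for *Slc16a3*, chr6:142507958-142508207 (−) for *Ldhb*, chr9:66713436-66713685 (+) for *Car12* and chr7:46845554-46845803 (+) for *Ldha*. Of the starts listed for *Ldha*, the first is shown.
Bnip3: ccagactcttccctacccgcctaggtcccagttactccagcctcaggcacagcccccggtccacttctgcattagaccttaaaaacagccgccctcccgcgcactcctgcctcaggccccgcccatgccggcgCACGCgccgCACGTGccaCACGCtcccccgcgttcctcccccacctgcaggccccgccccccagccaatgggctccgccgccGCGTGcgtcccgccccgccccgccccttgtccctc
Egln3: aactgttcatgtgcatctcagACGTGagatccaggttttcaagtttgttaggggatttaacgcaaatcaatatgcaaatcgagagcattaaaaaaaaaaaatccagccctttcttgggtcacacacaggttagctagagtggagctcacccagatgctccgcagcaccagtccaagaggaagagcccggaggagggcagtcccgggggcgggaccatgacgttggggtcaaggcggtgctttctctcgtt
Egln1: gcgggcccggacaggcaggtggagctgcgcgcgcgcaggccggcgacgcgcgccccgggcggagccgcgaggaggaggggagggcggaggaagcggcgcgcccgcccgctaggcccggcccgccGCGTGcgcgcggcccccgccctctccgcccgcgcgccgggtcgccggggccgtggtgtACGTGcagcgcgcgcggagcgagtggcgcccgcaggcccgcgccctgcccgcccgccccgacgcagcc
Ero1a: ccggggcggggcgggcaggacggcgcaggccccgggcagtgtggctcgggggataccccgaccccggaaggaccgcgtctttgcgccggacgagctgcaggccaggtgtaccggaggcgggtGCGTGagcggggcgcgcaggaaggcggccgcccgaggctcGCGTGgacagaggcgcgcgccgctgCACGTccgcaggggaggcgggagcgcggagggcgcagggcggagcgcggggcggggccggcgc
Slc16a3: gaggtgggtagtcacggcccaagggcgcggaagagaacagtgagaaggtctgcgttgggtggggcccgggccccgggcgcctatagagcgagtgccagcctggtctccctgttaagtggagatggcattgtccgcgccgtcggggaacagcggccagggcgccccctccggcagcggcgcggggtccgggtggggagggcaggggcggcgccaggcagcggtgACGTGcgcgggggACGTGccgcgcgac
Ldhb: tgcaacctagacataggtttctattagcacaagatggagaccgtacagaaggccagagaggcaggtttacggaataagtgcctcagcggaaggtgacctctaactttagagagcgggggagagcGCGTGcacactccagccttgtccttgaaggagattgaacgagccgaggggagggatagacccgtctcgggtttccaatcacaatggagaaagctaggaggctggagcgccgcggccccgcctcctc
Car12: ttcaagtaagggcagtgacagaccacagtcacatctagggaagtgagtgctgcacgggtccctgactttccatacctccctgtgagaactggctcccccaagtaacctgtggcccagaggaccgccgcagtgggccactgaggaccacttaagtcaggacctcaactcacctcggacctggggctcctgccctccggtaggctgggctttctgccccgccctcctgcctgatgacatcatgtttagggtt
Ldha: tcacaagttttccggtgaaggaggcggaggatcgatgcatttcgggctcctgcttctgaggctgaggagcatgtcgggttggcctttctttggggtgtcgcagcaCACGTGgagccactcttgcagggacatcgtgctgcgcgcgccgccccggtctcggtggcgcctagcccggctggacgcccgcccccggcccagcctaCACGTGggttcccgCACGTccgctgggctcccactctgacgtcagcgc

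*Bnip3* had 4 cores in this stretch, *Ero1a* and *Ldha* 3 each, *Egln1* and *Slc16a3* 2 each, *Egln3* and *Ldhb* 1 each and *Car12* none. *Slc16a3*, which was under the reference on the aged array, thus carried as many as *Egln1*, which was 6.78-fold higher there. *Vhl* and *Tpi1* also had none.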

How the data were processed

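Total RNA of aged and of young gastric organoids was labelled and hybridized to Clariom S mouse arrays, 1 array per group. The deposited table held 1 log2 value per probe set and array. The authors obtained it by RMA in Affymetrix Power Tools, that is, background was corrected, the arrays were normalized to each other and the probes of a set were summarized, which can compress the differences of dim genes. Versions and the genome build were not given in the sources used here. The base of the logarithm was not stated either, and base 2, the usual output of RMA, was assumed for every fold. No further normalization was applied.

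Probe sets with exactly 1 gene symbol (19572 of 22206) were kept and averaged per gene (19505 genes), and the chromosome was read from the probe set identifier. The background reference of each array was taken from 1400 genes for receptors of smell (olfactory and vomeronasal), at their 95th percentile. A fold is given only where both arrays lay above it, a lower bound computed from the reference where 1 array did, and no fold where neither did. Each difference is the aged value less the young value. No p-value or standard error could be computed from single arrays, and the number of arrays limits the precision. Genes were counted at a difference of at least 2-fold with 1 array or both above the reference.

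The members, the further gene lists and the rule for named genes (every member, and up to 4 genes at least 2-fold apart with the largest difference of each further list) were chosen with earlier results of these data known. Genes of the further lists named outside this rule, for context, were picked after their values were seen. Alternatives covered scaling, chromosome, background reference, probe sets, threshold and list summary, and 1, which left out genes with processed pseudogenes, was added after the values were seen. The steps were tested on simulated arrays. Promoter sequences were those of RefSeq on GRCm38.p6. Values were computed in Python 3.11.15 (pandas 2.3.3, numpy 2.4.6) and plotted with matplotlib 3.10.9.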

Additional observations from a re-analysis of the deposited data

How the results depend on the processing

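The counts of 14 members at least 2-fold higher and 6 at least 2-fold lower held the same genes under several alternatives. These were differences centred on all genes or on genes of like mean signal, and quantile normalization. The background reference at the 90th or the 99th percentile also left these counts the same. Centring on all genes took only 0.0020 off each difference, too little to change the call of a member. Quantile normalization was applied to values that RMA had already normalized between the arrays, and the members' median difference was then 0.72. Taking 1 probe set per gene could not change a member's signal, since no member had several probe sets. At a 1.5-fold threshold 24 members were higher and 6 lower, and at a 4-fold threshold 6 were higher and 3 (*Slc16a3*, *Ldhb* and *Car12*) lower. The mean in place of the median gave 0.55 for the members, 0.39 for the glycolytic steps and 0.81 for the other hypoxia targets, a gap of −0.42. These means used the measured differences, also where the aged signal lay under the reference, as for *Slc16a3* (−5.97), *Ldhb* (−5.65) and *Car12* (−4.70). They also held *Ndrg1* at 6.27. The part of single genes in these shifts was not tested. Centring on the chromosome gave the glycolytic steps a median of 0.67, and leaving out chromosomes 6 and 12 one of 1.02, with a gap of 0.35 to the other hypoxia targets. Medians counted as moved when they shifted by more than 0.1, and a single gene when it shifted by more than the SD of the receptor genes, which 15 of 480 values did, none with a change of sign. Settings that changed only the background percentile or the probe set choice could not shift these differences, and the 480 include such values. Of 126 alternative counts of the further lists, 16 moved by over 1.5 times. No paired analysis was possible because each group had 1 array. With 1 array per group the spread between cultures is unknown, and the folds of *Slc16a3*, *Ldhb* and *Car12* are lower bounds. The differences of the dim genes *Pfkfb4* (−0.02) and *Ankrd37* (−0.49) lay within the SD of the receptor genes, 0.50. That of *Epas1* (0.81) was larger, but *Epas1* was close to background on both arrays.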
